A study of Mus musculus with 6 samples.

Results

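The cartilage collagens are the fibril-forming types II, XI and XXVII and the fibril-associated type IX. The 7 genes taken by name are Col2a1, Col9a1, Col9a2, Col9a3, Col11a1, Col11a2 and Col27a1, out of 38924 genes in the count files, and all 7 passed the filter on low counts that left 13333 genes. RNA was sequenced from anterior nasal septum cartilage, cut by laser from frozen head sections of C57BL/6 mouse embryos at embryonic day 14.5. The 3 WT embryos were compared with 3 embryos of genotype Fgfr2+/S252W; EIIA-Cre, called Apert here after the human craniosynostosis syndrome that this fibroblast growth factor receptor change models. EIIA-Cre is a Cre transgene active in the early embryo, so the altered receptor is not restricted to cartilage, and the label of the WT embryos does not say whether they carried it. Each library came from 1 embryo, per the series design text. The comparison asks whether the genotypes differ in the transcripts that build the cartilage fibril.

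Collagen is a triple helix of 3 chains in which glycine opens every triplet of residues, because only glycine fits at the axis of the helix. Type II collagen, made of identical chains from Col2a1, forms the bulk of the thin cartilage fibril. Type XI collagen, built from the products of Col11a1, Col11a2 and Col2a1, is copolymerised with it and limits fibril diameter. Type IX collagen, a trimer of Col9a1, Col9a2 and Col9a3 products, decorates the fibril surface and links it to matrilins and COMP, while type XXVII collagen forms separate thin fibrils in developing cartilage. SOX9 with SOX5 and SOX6 drives several of these genes in chondrocytes.

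The glycine repeat can be read in the coding sequence as a GGN codon at the head of each triplet of codons. The longest such run held 339 triplets in Col2a1, 338 in Col11a1 and 338 in Col11a2, 217 in Col27a1 and 113 in each of Col9a1, Col9a2 and Col9a3. Among 20945 genes with a coding sequence, 15 had a run of at least 100 triplets, and the 7 cartilage collagens are among these 15. In Col2a1, Col11a1, Col11a2 and Col27a1 every coding exon that lay whole within the run was a multiple of 9 bases long (42 of 42, 48 of 48, 48 of 48 and 35 of 35), and 23, 31, 31 and 24 of them were exactly 54 bases. In each type IX gene 15 of 17 such exons were multiples of 9. The first 54 coding bases of each longest run are shown because they display the codon repeat that these genes share. The GC contents given further on are those of whole longest transcripts, and these short stretches do not follow their order. They are exonic coding sequence from the GENCODE M21 transcripts on GRCm38 (mm10), written 5′ to 3′ along the gene. Capitals mark the GGN codon that opens each triplet, and each stretch lies on 2 exons, so the coordinates also span the intron between them.
Col2a1 (chr15:97996648-97997320, minus strand): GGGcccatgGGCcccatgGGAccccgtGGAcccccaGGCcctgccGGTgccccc
Col9a1 (chr1:24209080-24210390, plus strand): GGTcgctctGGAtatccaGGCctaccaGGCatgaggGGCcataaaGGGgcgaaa
Col9a2 (chr4:121045020-121045158, plus strand): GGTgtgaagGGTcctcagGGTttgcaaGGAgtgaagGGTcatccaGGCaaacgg
Col9a3 (chr2:180605239-180605744, plus strand): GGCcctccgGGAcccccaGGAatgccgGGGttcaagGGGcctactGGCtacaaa
Col11a1 (chr3:114105402-114108289, plus strand): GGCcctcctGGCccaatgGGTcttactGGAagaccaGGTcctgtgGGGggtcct
Col11a2 (chr17:34051274-34051488, plus strand): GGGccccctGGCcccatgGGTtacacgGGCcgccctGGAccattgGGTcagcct
Col27a1 (chr4:63244040-63245113, plus strand): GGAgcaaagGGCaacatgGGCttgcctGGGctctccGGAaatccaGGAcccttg

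Libraries held 6760510 to 10834744 counts. The mitochondrial genome took 28.8% to 30.2% of counts in WT and 34.3% to 40.4% in Apert, and a count was found for 18687 to 18942 genes in WT and 18245 to 18529 in Apert (two-sided exact permutation test, p = 0.1 for both, the smallest that 3 against 3 libraries can give). Chondrocyte markers summed to 11199 to 12555 CPM in WT and 10549 to 12094 CPM in Apert, and none of the 12 was at 0 in all libraries. CPM are counts scaled to library depth after trimmed mean of M values (TMM) scaling. Hapln1 alone averaged 5686 CPM in WT and 6378 CPM in Apert. Of the 11 tested, 9 had a log2 fold change (Apert minus WT) below 0 and 2 above (median -0.27). Of all tested genes, 48.9% were below 0. None of the 11 was called at an edgeR adjusted p below 0.05, where 0.45% of all tested genes were. Osteoblast markers summed to at most 1.77 CPM in any library, with Ibsp and Dmp1 at 0, and epithelial markers to at most 2.99 CPM, with Krt14 and Cdh1 at 0. Skeletal muscle markers summed to 5.11 to 10.6 CPM, with Myod1, Myog, Myh8 and Ckm at 0. Endothelial, macrophage and erythroid markers reached at most 5.02, 13.1 and 92.6 CPM. Perichondrium markers separated the genotypes, at 761 to 947 CPM in WT and 1198 to 1518 CPM in Apert, with Dpt at 0, and 1 of the 8 tested, Ogn, rose (log2 fold change 0.93, edgeR adjusted p = 0.0363; with the GC curve described further on 0.65 and 0.258), where 0.45% of all tested genes were called in either direction. The Ogn call held under 8 of 15 alternatives and was also lost with totals alone (adjusted p = 0.0738) and without any 1 library other than Apert replicate 1 (adjusted p of 0.065 to 0.263). The sum of perichondrium markers was not adjusted for GC content. With the GC curve the log2 fold changes fell for Aspn (1.37 to 1.05), Prrx1 (0.53 to 0.39), Postn (0.60 to 0.33) and Lum (0.50 to 0.31). They rose for Tnc (0.61 to 0.73), Prrx2 (0.63 to 1.05) and Twist1 (-0.01 to 0.27). Glia markers also separated, at 364 to 433 CPM (WT) and 276 to 328 CPM (Apert). Neuron markers separated only just, at 193 to 233 and 233 to 266 CPM. What these cells contribute to the results was not tested. WT replicate 2 stood apart for the cartilage collagens: it had the highest CPM of all 6 libraries for 5 of the 7 genes.

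Levels can be set against each other only per length, and CPM per kilobase of merged exons (FPKM) was used for that. Col2a1 led in every library, at 2774, 4090 and 2982 FPKM in WT replicates 1 to 3 and 3031, 2722 and 3000.4 FPKM in Apert replicates 1 to 3. It held rank 10 among all tested genes by mean WT FPKM. Col9a3 followed at 868 ± 78.1 FPKM and Col11a1 at 692 ± 68.8 FPKM in WT (SD, n = 3), and the ranges of Col9a3 and Col11a1 over the 6 libraries overlapped (687 to 956 and 620 to 873 FPKM). Col9a1 was next, at 309 ± 24.9 FPKM in WT, and its range met no neighbour's. Col27a1 (98.1 ± 20.4 FPKM), Col9a2 (61.0 ± 16.96 FPKM) and Col11a2 (44.3 ± 18.8 FPKM) were the lowest in WT, each with a range that overlapped the next. Per kilobase of the longest transcript in place of all merged exons, a length chosen after seeing the data, the order was the same. Together the 7 genes took 4.34% to 5.63% of all counts outside the mitochondrial genome in WT and 4.48% to 4.93% in Apert (exact permutation p = 0.7).

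**Figure D1:**
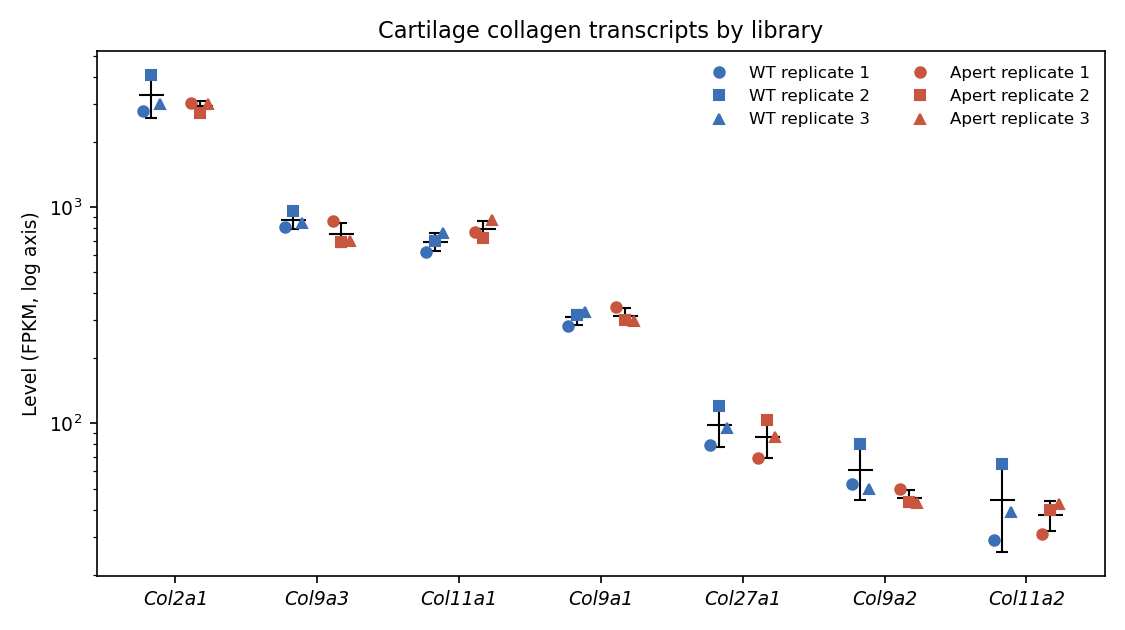
Level of each cartilage collagen in each library, in FPKM on a log axis, with genes ordered by mean WT level. Points are libraries, short horizontal marks are group means and bars are ± SD (n = 3). Col2a1 lies at 2722 to 4090 FPKM, above all other chains, and Col11a2 is lowest in WT at 44.3 FPKM on average.

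Chains that assemble together were not found at equal transcript levels. Type IX collagen contains 1 chain of each gene, yet per kilobase Col9a3 made up 70.1% ± 0.963 and Col9a2 4.88% ± 0.953 of the type IX transcripts in WT (SD, n = 3), and Col9a1 24.6%, 23.5% and 26.9% in WT replicates 1 to 3. In Apert Col9a3 made up 67.5% ± 1.004, Col9a2 4.09% ± 0.143 and Col9a1 28.5% ± 0.864, with every Apert library above the WT range for Col9a1. The imbalance was wider within type XI: Col11a1 made up 94.0% ± 2.24 of the 2 dedicated type XI genes in WT and 95.4% ± 0.665 in Apert, and Col11a2 the rest. Col9a2 and Col11a2, the scarce chains, have transcripts of 62.7% and 62.9% GC. Their partners Col9a3, Col9a1 and Col11a1 have 59.2%, 52.2% and 48.0%, and Col2a1, the most abundant of the 7, has 62.2%. The part of base composition in these shares was not tested, nor was that of the amplification from 15 ng of RNA.

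None of the 7 cartilage collagens passed the test between genotypes (edgeR quasi-likelihood test, Benjamini-Hochberg adjusted p over all tested genes below 0.05), where 0.45% of all tested genes did. DESeq2 and limma-voom also called 0 of the 7. At an unadjusted edgeR p below 0.05 there was 1, Col9a2, against 11.4% of all tested genes. The median log2 fold change of the 7 genes (Apert minus WT) was -0.19 and that of all tested genes 0.01. Below 0 were 5 of the 7, where 48.9% of all tested genes were. Only Col9a2 had groups that did not overlap, a state found in 16.6% of all tested genes, and in 7.7% with Apert lower as here. In bulk tissue, fewer cells of a type and less RNA per cell cannot be told apart.

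Col2a1 (ENSMUSG00000022483, chr15:97975602-98004695, minus strand) measured 16646, 24543 and 17897 CPM in WT replicates 1 to 3 and 18189, 16336 and 18006 CPM in Apert replicates 1 to 3. WT replicate 2 was far above the other 5 libraries, which were interleaved. The log2 fold change was -0.17 (standard error 0.14, edgeR adjusted p = 0.706), and 2 standard errors on each side reach from -0.46 to 0.12. Without WT replicate 2 it was 0.02. The gene has forms with and without a cysteine-rich domain near its start, which chondrocytes switch between as they mature, and counts per gene do not separate them.

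Among the type IX genes, Col9a2 (chr4:121039385-121055322, plus strand) was at 163, 249 and 155 CPM in the WT libraries and 153, 135 and 132 CPM in the Apert ones. All 3 Apert libraries lay below all 3 WT libraries, although the lowest WT and the highest Apert value nearly met. Its log2 fold change was -0.43 (standard error 0.17, edgeR adjusted p = 0.344), and -0.18 without WT replicate 2. Col9a3 (chr2:180597790-180622189, plus strand) was at 3110.5, 3685 and 3242 CPM in the WT libraries and 3323, 2647 and 2685 CPM in the Apert ones. Apert replicate 1 lay within the WT range and the other two below it (log2 fold change -0.21, standard error 0.13, edgeR adjusted p = 0.578; -0.14 without WT replicate 2). Over 234 bases, 6.07% of its exon length, Col9a3 shares exons with Tcfl5 on the opposite strand, and counting did not use strand. Tcfl5 itself had 112 to 173 counts, against 16568 to 38234 for Col9a3. Col9a1 (chr1:24177610-24252684, plus strand), whose product carries the globular end that projects from the fibril, was at 1423, 1614 and 1662 CPM in the WT libraries and 1751, 1520.3 and 1514 CPM in the Apert ones. The groups were interleaved and the log2 fold change was 0.03 (standard error 0.13; edgeR adjusted p = 0.964).

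Col11a1 (chr3:114030540-114220718, plus strand) was the only member besides Col9a1 with a positive value, at 5984, 6744 and 7307 CPM in the WT libraries and 7427, 6979.5 and 8435 CPM in the Apert ones. Apert replicates 1 and 3 lay above every WT library and Apert replicate 2 within their range. The log2 fold change was 0.19 (standard error 0.13, edgeR adjusted p = 0.623; 2 standard errors reach from -0.07 to 0.45). Its partner Col11a2 (chr17:34039437-34066685, plus strand) had the widest spread in WT, at 197, 445 and 266 CPM in the WT libraries and 211, 270.4 and 289 CPM in the Apert ones. The Apert libraries fell inside the wide WT range, with a coefficient of variation of 42.4% in WT and 15.8% in Apert. Its log2 fold change was -0.23 (standard error 0.22, edgeR adjusted p = 0.731), and 0.15 without WT replicate 2.

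Col27a1 (chr4:63214004-63334991, plus strand) was at 1036, 1562 and 1236 CPM in the WT libraries and 897, 1349 and 1126 CPM in the Apert ones, with interleaved groups. Its log2 fold change was -0.19 (standard error 0.17, edgeR adjusted p = 0.722), and -0.02 without WT replicate 2. The microRNA gene Mir455 lies within the Col27a1 span on the same strand and had 0 to 4 counts in these libraries. Each of the 7 genes was also fitted under 15 alternative settings and none was called under any of them. The lowest adjusted p was 0.133, for Col9a2 with libraries scaled by their totals alone.

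Ratios between chains do not depend on library scaling, and 10 of them, as log2 ratios of counts per kilobase, were put to a two-sided exact permutation test. With 3 against 3 libraries the exact p cannot go below 0.1, and the smallest value adjusted over the 10 was 0.25. In 4 of the 10 the genotypes did not overlap, where the CPM of 16.6% of all single tested genes did not. No such share was taken over other pairs of genes. The ratios share genes and so are not independent, and the direction of each depends on which gene is divided by which. As set up here, the 4 were all higher in Apert. The first was Col9a1 to Col9a2, at 5.34, 3.95 and 6.57 in WT and 6.97, 6.89 and 6.99 in Apert (1.34-fold, p = 0.1, adjusted 0.25, exact permutation). The 3 Apert values were nearly equal and just above the highest WT value. Without WT replicate 2 the log2 difference went from 0.43 to 0.23. Col9a1 to Col9a3 was 0.348, 0.333 and 0.390 in WT and 0.401, 0.437 and 0.429 in Apert (1.18-fold, exact p = 0.1, adjusted 0.25). Each Apert library was above each WT library here too.

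Col11a1 to Col2a1, the proportion of the diameter-limiting chain to the bulk fibril chain, was 0.223, 0.171 and 0.254 in WT and 0.254, 0.266 and 0.291 in Apert (1.27-fold, exact p = 0.1, adjusted 0.25). WT replicate 3 and Apert replicate 1 were equal to 3 digits, so the groups only just separated. Without WT replicate 2 the log2 difference went from 0.34 to 0.18. Both type XI genes summed to Col2a1 gave 1.25-fold with overlapping groups (exact p = 0.2, adjusted 0.4). Col11a1 to Col11a2 ran from 10.7 to 21.5 in WT and from 18.3 to 24.9 in Apert, again overlapping (exact p = 0.5). Without WT replicate 2 its log2 difference went from 0.35 to 0.042, and that of both type XI genes to Col2a1 from 0.32 to 0.18. Col9a2 to Col9a3 was at 0.88-fold with overlapping groups (exact p = 0.4), and its log2 difference went from -0.18 to -0.035 without WT replicate 2. The other ratios to Col2a1 were close to even between genotypes: type IX genes summed were at 0.99-fold (log2 difference -0.01), Col27a1 at 0.98-fold and Col11a2 at 0.99-fold, with overlapping groups in each.

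The fibrous tissue collagens Col1a1, Col1a2 and Col3a1 summed to Col2a1 gave the largest difference of the 10 ratios. The values were 0.0525, 0.0407 and 0.0494 in WT and 0.0653, 0.0758 and 0.0681 in Apert (1.47-fold, exact p = 0.1, adjusted 0.25). All 3 Apert libraries were above all 3 WT libraries, and the log2 difference lay between 0.45 and 0.63 when any 1 library was dropped. The summed perichondrium markers, given above without the GC curve, were also higher in each Apert library, and their part in this ratio was not tested.

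**Figure D2:**
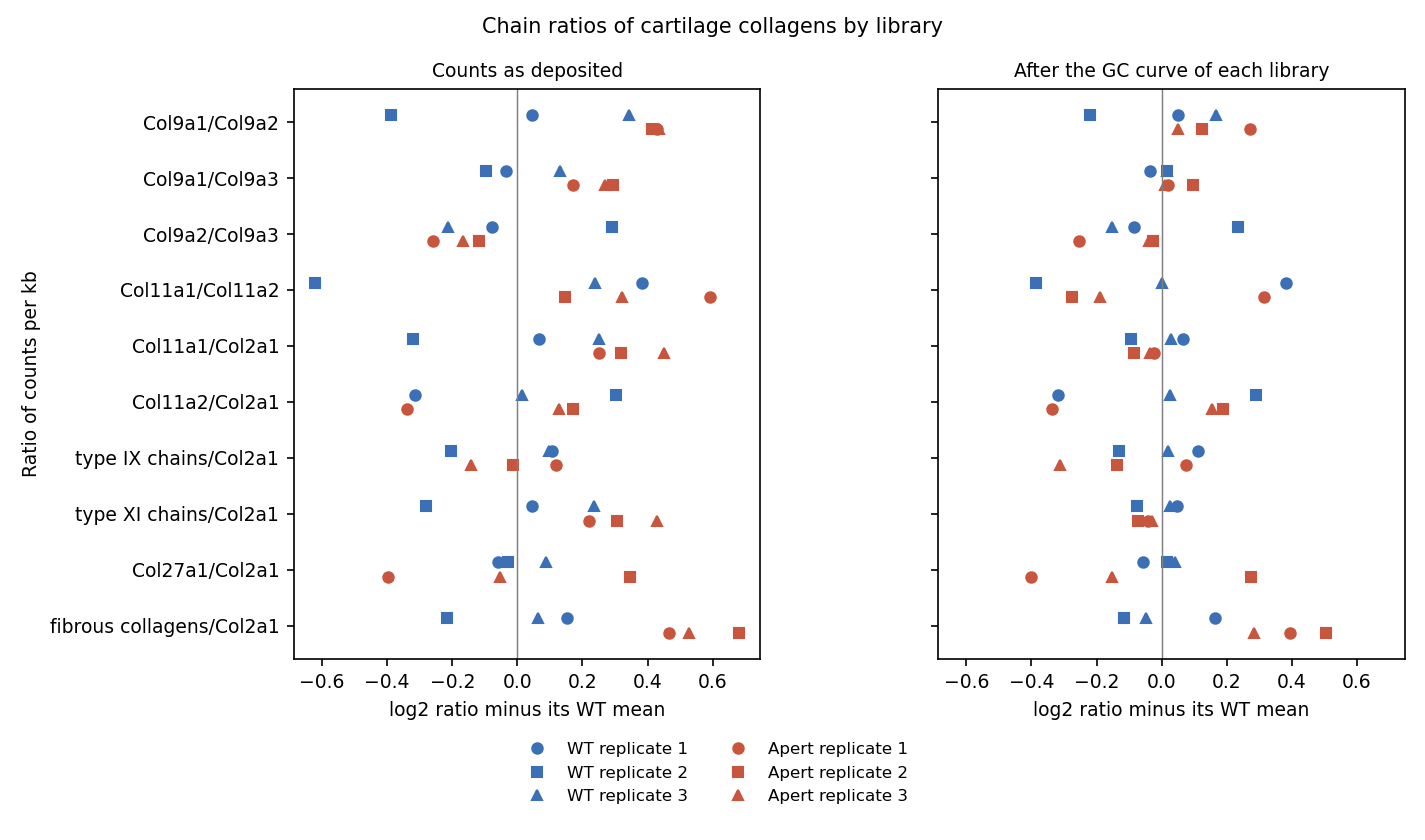
The 10 log2 ratios of counts per kilobase in each library, each set relative to its WT mean, from deposited counts on the left and after division by the GC curve of each library on the right. Points are libraries. Groups separate for 4 ratios on the left and for 1, fibrous collagens to Col2a1, on the right.

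Base composition moved with these differences. The 5 genes below 0 have transcripts of 59.2% to 62.9% GC, whereas Col9a1 has 52.2% and Col11a1 48.0%, and the median of tested genes is 48.9%. A smooth curve of each library's deviation on GC content over all tested genes was used as a measure of this. At the GC content of Col2a1 the curve averaged 0.19 in WT and -0.18 in Apert (log2), a difference of -0.37, and at that of Col11a1 the difference was 0.02. In WT replicate 2, the library with the highest values of 5 genes, the curve stood at 0.40 for Col2a1 and 0.42 for Col11a2. With the curve as an offset, the log2 fold changes were 0.21 for Col2a1, 0.13 for Col9a1, -0.03 for Col9a2, 0.09 for Col9a3, 0.17 for Col11a1, 0.19 for Col11a2 and 0.13 for Col27a1, with standard errors of 0.13 to 0.20. Their median was then 0.13, against 0.00 for all tested genes, and none was called (lowest edgeR adjusted p = 0.774). The sign turned for Col2a1, Col9a3, Col11a2 and Col27a1.

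The chain ratios were divided by the same curves, so their moves follow from those of the single genes and are not a separate observation. The curves were fitted to these same libraries. They would also take out any difference between genotypes that follows GC content. With the curve, the log2 difference of Col9a1 to Col9a2 went from 0.43 to 0.15, that of Col9a1 to Col9a3 from 0.24 to 0.04 and that of Col11a1 to Col2a1 from 0.34 to -0.05, with overlapping groups in each (exact p = 0.4 to 0.5). Fibrous collagens to Col2a1 went from 0.56 to 0.39 and its groups still did not overlap (exact p = 0.1). The part of base composition in the differences between genotypes was not tested, nor was that of the mitochondrial share.

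**Figure D3:**
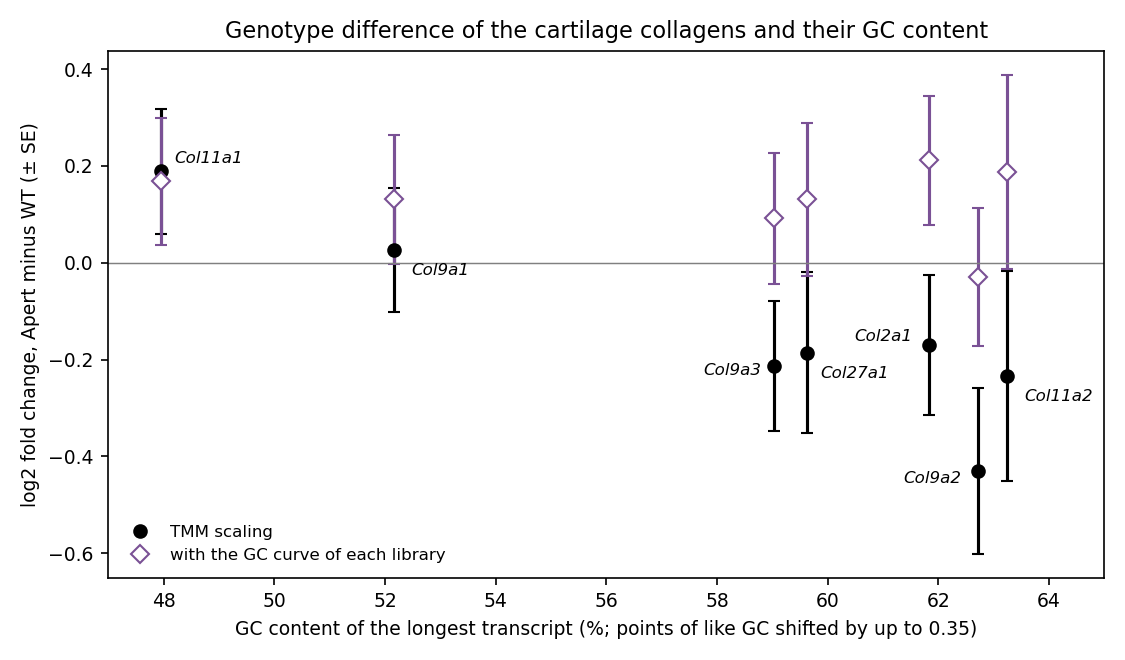
Log2 fold change of each cartilage collagen (Apert minus WT, ± standard error) against the GC content of its longest transcript in percent. Filled circles use TMM scaling and open diamonds add the GC curve of each library as an offset. The 5 genes above 59% GC lie at -0.43 to -0.17 with TMM scaling and at -0.03 to 0.21 with the curve.

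The members were compared with Col2a1 by the root mean square difference of their centred log2 CPM profiles over the 6 libraries, among 7404 genes of at least 10 CPM. Col9a3 (0.13) and Col9a2 (0.16) were nearest to Col2a1 and Col11a1 (0.25) and Col11a2 (0.24) farthest, and 1.73% of ranked genes were nearer to Col2a1 than Col9a3 was. That share was 3.53% for Col9a2, 7.51% for Col9a1, 16.5% for Col27a1, 23.4% for Col11a2 and 24.9% for Col11a1. The 5 genes with the profiles most like Col2a1 were Shc1, Wars2, Cdk16, Cnot9 and Eno1, at differences of 0.07 to 0.08. For the mean of the 7 genes they were Prkca, Cdk16, Pde4dip, Wars2 and Gtf3c1, at 0.06 to 0.07. With 6 libraries many genes share a profile by this measure, and none of the 10 entries passed the test between genotypes.

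Of 22 cartilage matrix partners, the proteins that sit on or between the collagen fibrils, 19 were tested and none was called (median log2 fold change -0.26). Those with the smallest p were the leucine-rich protein gene Chad (-0.63, edgeR adjusted p = 0.0695), its relative Chadl (-0.84, adjusted p = 0.138), the matrilin gene Matn3 (0.85, adjusted p = 0.197) and the small proteoglycan gene Bgn (0.44, adjusted p = 0.234). Chad was at 162 ± 22.2 CPM in the WT libraries and 105 ± 3.38 CPM in the Apert ones (SD, n = 3 each). The groups of these 4 genes did not overlap, a state found in 16.6% of all tested genes. Because they were picked for a small p, this adds no support. Chadl shares exons with L3mbtl2, so its counts are uncertain. Chad was called under 5 of the 15 alternatives, Chadl under 3, Matn3 under 2 and Bgn under 0. Chad was called without Apert replicate 1 (adjusted p = 0.0473), as was Chadl (adjusted p = 0.0446). With the GC curve Chad was at -0.39 (adjusted p = 0.419), and without WT replicate 1 Matn3 was at 0.51. Of 11 transcription factors and related regulators of chondrocytes 10 were tested and none was called (median -0.18). The ubiquitin ligase gene Wwp2, which hosts a cartilage microRNA, was at 897 ± 48.6 CPM in the WT libraries and 645 ± 2.05 CPM in the Apert ones (adjusted p = 0.107). Sox9 had a log2 fold change of -0.67 (adjusted p = 0.125), Sox5 of -0.10 and Sox6 of -0.08. With the GC curve Sox9 was at -0.64 and Wwp2 at -0.28. Sox9 was called under 4 of the 15 alternatives, among them without Apert replicate 1 (-0.93, adjusted p = 0.00858), and Wwp2 under 3, and Sox6 turned to 0.013 without WT replicate 1.

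Genes that make collagen chains fit for assembly were also measured. All 21 chain modification genes were tested and none was called, with 14 below and 7 above 0 (median -0.13). The prolyl 3-hydroxylase gene P3h2 was at 0.96 (edgeR adjusted p = 0.22), the related P3h4 at -0.59 and the collagen chaperone gene Fkbp10 at -0.70 (log2 fold change). P3h2 shares exons with Gm4524 and Fkbp10 with Nt5c3b, which makes their counts uncertain. Without Apert replicate 1 P3h2 was at 0.48, and Fkbp10 was at -1.03 and called (adjusted p = 0.0205), as it was under 2 of the 15 alternatives in all. None of 14 genes of collagen export was called (median 0.01, with Sar1b at 0.24), nor any of 12 tested of 13 for trimming and crosslinking of procollagen (median 0.06), among them the proteinase gene Bmp1 at -0.57 and the crosslinking enzyme gene Lox at 0.45. The 7 collagen receptor genes had a median of -0.03 and none called, with the collagen-binding integrin gene Itga1 at 0.43 (adjusted p = 0.57). In the hypertrophic cartilage list 3 of 8 were tested and none was called, and Col10a1, the collagen of hypertrophic cartilage, which shares exons with Nt5dc1, was at 5.78 ± 0.788 CPM in the WT libraries and 3.90 ± 1.75 CPM in the Apert ones (SD, n = 3 each).

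Among 12 collagens of fibrous tissue and perichondrium 11 were tested, 1 rose and 10 did not pass (median log2 fold change 0.22). Of all tested genes, 0.398% were called higher in Apert. The one that rose was Col3a1, the fibrillar collagen of loose connective tissue, from 279 ± 35.1 to 452 ± 15.8 CPM (log2 fold change 0.69, standard error 0.14, edgeR adjusted p = 0.0322; with the GC curve 0.80 and adjusted p = 0.0568). Its call held under 8 of the 15 alternatives. It was lost with totals alone, with the GC curve and without any 1 library other than Apert replicate 1, at adjusted p of 0.0568 to 0.199 and log2 fold changes of 0.54 to 0.80. Col1a1 was at 0.84 (adjusted p = 0.165), Col5a2, whose product joins type I fibrils, at 0.70 (adjusted p = 0.135) and Col24a1, the closest relative of Col27a1, at 0.96 (adjusted p = 0.329). Of the 15 alternatives, Col1a1 was called under 4, Col5a2 under 4 and Col24a1 under 3, among them no expression filter for each. Col1a1 was also called when WT replicate 2 was dropped, at 1.30 with an adjusted p of 0.0167. All 3 were called when Apert replicate 1 was dropped, at 0.99 for Col1a1 (adjusted p = 0.0319), 0.88 for Col5a2 (adjusted p = 0.0102) and 1.26 for Col24a1 (adjusted p = 0.0432), and without Apert replicate 3 Col5a2 was at 0.43 and Col24a1 at 0.43. Without WT replicate 1 Col24a1 was at 0.58. The cartilage collagens had a median of -0.19 and the fibrous list one of 0.22, a difference between lists that was not tested.

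**Figure D4:**
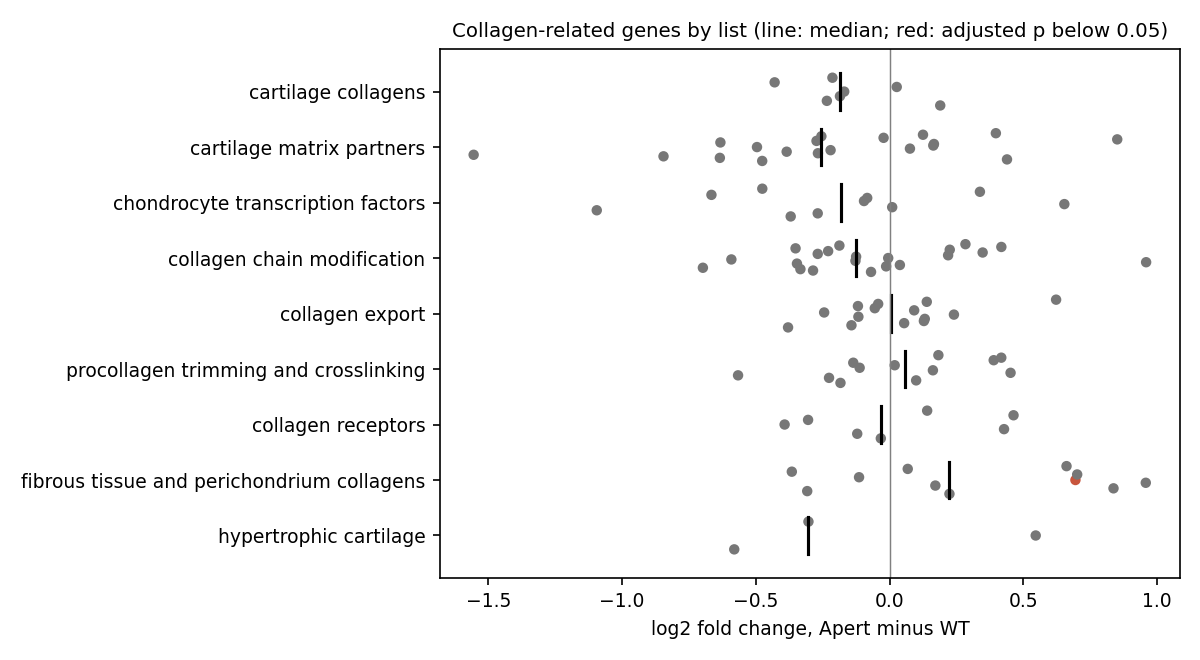
Log2 fold change (Apert minus WT) of each tested gene in 9 lists of collagen-related genes, one point a gene, with a black line at each list's median. The cartilage collagens lie between -0.43 and 0.19, and the 1 red point, Col3a1, is the only gene with an adjusted p below 0.05.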

How the data were processed

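Per the labels' protocols, 15 ng of total RNA per embryo was amplified to cDNA (NuGEN Ovation), tagged with Nextera XT and sequenced as 100 bp pairs. No molecular identifiers were described, so depth limits cover counting error only. Per the submitters' processing notes the tools were cutadapt, STAR 2.5.2b and featureCounts 1.4.4, with build mm10. The deposited values are whole-number counts of fragments per Ensembl release 75 gene, over exons and without strand, per the file headers. Depth was 6760510 to 10834744 counts per library, so 1 count was at most 0.148 CPM. Of 38924 genes 37607 had a symbol, and the others held at most 0.205% of a library's counts.

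From these counts, edgeR 4.0.16 in R 4.3.3 was run with filterByExpr, TMM scaling, the quasi-likelihood F test and Benjamini-Hochberg adjustment at 0.05 over 13333 genes. The standard error is the log2 fold change divided by the square root of F. FPKM is TMM-scaled CPM per kilobase of merged exons. GC content came from the longest transcript of GENCODE M21 (13192 tested genes), and its curve was fitted with mgcv 1.9.3 to log2 CPM with a prior count of 2. Alternatives used DESeq2 1.42.0, limma 3.58.1 (voom), other scalings and filters, a replicate block and each library left out. The fit was checked on simulated counts with the same dispersion for every gene. Those counts held no library that stood apart and no GC difference between genotypes, so the check does not cover these conditions. The members and lists were chosen with earlier results of these data known. Genes named besides the 7 are the up to 4 of each list with the smallest p, not all of them printed (1 receptor gene is not reported here), and the 5 nearest profiles of at least 10 CPM, passing over predicted genes. Sox5 and Sox6 were named besides, after their values were seen, as were Ogn, Tcfl5 and Mir455. P-values measure only the spread between these libraries. Labels do not tie equal replicate numbers to litters or days.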

Additional observations from a re-analysis of the deposited data

How the results depend on the processing

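None of the 7 cartilage collagens was called under any of the 15 alternatives. The number of genes called over the whole table moved from 60 to 247 with no expression filter, 223 with DESeq2, 172 with the replicate block, 5 with the GC curve and 0 to 229 when single libraries were dropped: 15, 23 and 0 without WT replicate 1, 2 or 3, and 229, 2 and 11 without Apert replicate 1, 2 or 3 (edgeR gave 1376 genes an unadjusted p below 0.05 in the fit that called 0). With libraries scaled by totals alone, 17 of the 41 called genes were higher in Apert, against 53 of 60, and the median of all tested genes went from 0.01 to -0.14. The replicate block changed no call among the 7, and of the named list genes it called Chad, Matn3, Sox9, Col1a1, Col5a2 and Col24a1 besides (edgeR adjusted p of 0.00409 for Matn3 to 0.0439 for Col5a2). Deviations from the group means correlated at 0.19, 0.02 and 0.09 between libraries of the same number. Libraries of numbers 1 and 3 correlated best with their own number, and those of number 2 did not. Deviations within a group are tied to each other, so these correlations cannot decide on pairing. The numbers were not taken as pairs because the labels do not tie them to litters or days.

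Signs turned for some log2 fold changes. With the GC curve Col2a1 was at 0.21, Col9a3 at 0.092, Col11a2 at 0.19 and Col27a1 at 0.13. With totals alone Col9a1 was at -0.13. When single libraries were dropped Col2a1 ran from -0.28 to 0.018, Col9a1 from -0.077 to 0.073 and Col11a2 from -0.47 to 0.15, while Col9a2, Col9a3, Col11a1 and Col27a1 kept their sign. Of the named list genes, Sox6 ran from -0.21 to 0.013 when single libraries were dropped, and Itgb1 turned to -0.015 with totals alone and Pth1r to 0.022 with the GC curve. These list genes were put through the alternatives after seeing the data. The cause of these turns was not tested.

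Of the ratios, the GC curve turned Col11a1 to Col11a2 to -0.051, Col11a1 to Col2a1 to -0.049, both type XI genes to Col2a1 to -0.047 and Col11a2 to Col2a1 to 0.0017 (log2 differences). When single libraries were dropped Col11a2 to Col2a1 ran from -0.17 to 0.15, type IX genes to Col2a1 from -0.11 to 0.053 and Col27a1 to Col2a1 from -0.23 to 0.15. A pseudocount of 1 count turned no ratio. Exact tests of 3 against 3 libraries cannot pass 0.05, so they say nothing about stability.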
